A study of Mus musculus with 2 samples.

Results

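Toll-like receptors are the surface and endosomal sensors through which macrophages detect microbial products, and 10 genes of this system were followed here: the receptors Tlr1, Tlr2, Tlr4, Tlr6 and Tlr7, the co-receptors Cd14, Ly96, Cd180 and Ly86, and the adaptor Myd88. They were chosen by name, with earlier results of these data known. All 10 were found among 22180 named genes, each on a single array feature (a set of probes summarised as 1 value). RNA came from alveolar macrophages, which reside in the air spaces of the lung, sorted by flow cytometry from mice aged 8 to 10 weeks that were kept pathogen-free and had no labelled treatment. There were 2 Affymetrix arrays, 1 per genotype: Lysm-Cre, in which the lysozyme 2 locus drives Cre recombinase in myeloid cells, and Lysm-Cre Ssu72fl/fl, in which both Ssu72 alleles are also flanked by recombination sites. Both groups therefore carry Cre. The sources used here do not give the number of mice behind an array, or the sex and strain of the animals.

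In TLR4 signalling, CD14 hands bacterial lipopolysaccharide to MD-2, the product of Ly96, which binds it inside the TLR4 complex. RP105, the product of Cd180, resembles the outer part of TLR4 but lacks its signalling domain, and it is held at the surface by MD-1, the product of Ly86, a relative of MD-2. RP105 with MD-1 has been described as a brake on TLR4 in macrophages and dendritic cells and as an activating receptor on B cells. The comparison therefore sets the TLR4-CD14-MD2 arm against the RP105-MD1 arm in cells labelled with and without floxed Ssu72, which encodes a phosphatase of the RNA polymerase II tail.

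Each genotype had a single array, so differences have no replicate check and no p-value, and precision is limited by the number of arrays. A difference is the log2 value labelled Ssu72fl/fl minus the Lysm-Cre value. Ssu72 itself read 4.86 (Lysm-Cre) and 4.998 (labelled Ssu72fl/fl), so the targeted gene did not check the label; whether its probes lie in the deleted part is unknown. A value counted as above background if it exceeded the floor of 4.65, the median of all values on both arrays. Genes above the floor on 1 array or both were compared, which left 13015. Because differences drifted with signal, from a median of 0.0080 among compared genes at levels 4 to 5 to -0.42 at levels 7 to 8, a level-adjusted difference, with a smooth trend removed, is given beside the deposited one. The spread given with a gene is a robust SD, from the median absolute deviation, of differences among compared genes whose mean level lay within 0.25. It describes scatter between genes, not between animals. Readings under the floor were set to the floor first, which can narrow the spread given for genes close to it.

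A single member of the 10 stood apart. Ly86, which encodes MD-1, was 1.82-fold lower on the array labelled Ssu72fl/fl, while the other 5 compared members differed by 0.21 or less on the log2 scale. The remaining 4 members, Tlr1, Tlr4, Tlr6 and Ly96, were below the floor on both arrays, so they have no measured direction. All 6 compared members were lower by some amount, with a median of -0.081, against 51.9% of all compared genes lower and a median of -0.0068 over all of them. After level adjustment 4 of the 6 were lower and 2 higher (median -0.056), against 46.5% lower among all compared genes (median 0.010). Ly86 was the only member at least 1.5-fold lower, a size reached downward by 1.37% of compared genes. No member was at least 1.5-fold higher, a size reached upward by 0.315% of compared genes, and none was 2-fold lower, against 0.0845%.

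**Figure D1:**
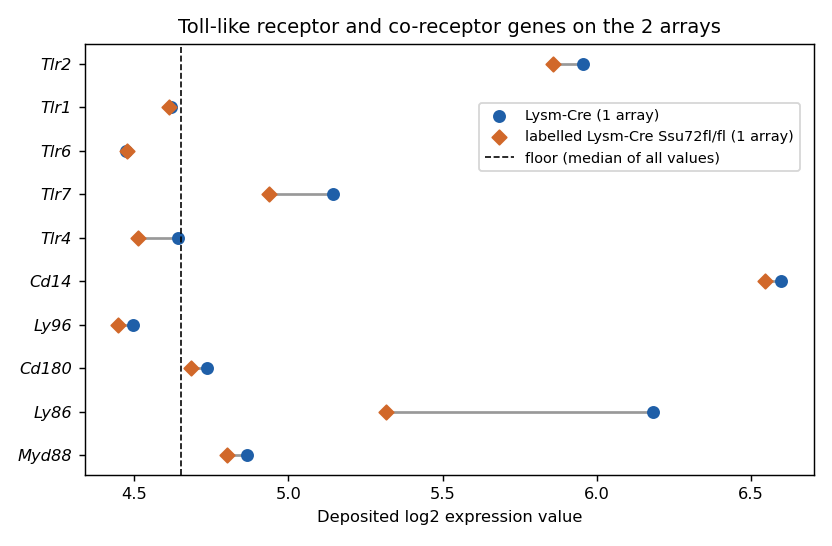
Deposited log2 expression values (horizontal axis) of the 10 genes on the Lysm-Cre array (circles) and the array labelled Lysm-Cre Ssu72fl/fl (diamonds), 1 array each, with the floor of 4.65 as a dashed line. Ly86 has the widest gap, from 6.18 to 5.32; Tlr1, Tlr4, Tlr6 and Ly96 lie left of the floor on both arrays, and positions of different genes are not comparable because each has its own probes.

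In the RP105-MD1 arm Ly86 differed, and Cd180 lay too close to the floor to show a difference of that size. Ly86 was at 6.18 in Lysm-Cre and at 5.32 in the cells labelled Ssu72fl/fl, a difference of -0.86, with both readings above the floor (by 1.53 and 0.66). The spread among 1046 genes of like level was 0.24 and their median -0.094. The level-adjusted difference of Ly86 was -0.74. Only 4 of those 1046 genes, Ly86 included, were at least as low (0.382%). The other 3, named after their values were seen, were the vomeronasal receptor gene Vmn1r129 (-1.02), the microRNA gene Mir5123 (-0.93) and the keratin-associated protein gene Krtap4-13 (-0.89). Among the 962 protein-coding genes of that level, Ly86 was 1 of 3 at least as low.

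Cd180, the receptor that MD-1 accompanies, was at 4.74 and 4.69, a difference of -0.052 against a spread of 0.093. Both readings were close to the floor, 0.086 and 0.034 above it. A fall in Cd180 of the size seen in Ly86 could not have been read from these values, since the Lysm-Cre signal had less than that distance to the floor. The median of the arm, -0.46, is therefore the midpoint of a large and a small difference.

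The sequences before the transcription starts of both partners are shown because Ly86 carries the difference in this arm and Cd180 encodes the receptor its product accompanies. They are the 250 bases upstream of the RefSeq start of each gene on the plus strand of build GRCm38.p6, at chr13:37345095-37345344 for Ly86 and chr13:102693297-102693546 for Cd180. Capitals mark GGAA or its reverse complement, the core bound by ETS factors such as PU.1, the main transcription factor of macrophages.
Ly86: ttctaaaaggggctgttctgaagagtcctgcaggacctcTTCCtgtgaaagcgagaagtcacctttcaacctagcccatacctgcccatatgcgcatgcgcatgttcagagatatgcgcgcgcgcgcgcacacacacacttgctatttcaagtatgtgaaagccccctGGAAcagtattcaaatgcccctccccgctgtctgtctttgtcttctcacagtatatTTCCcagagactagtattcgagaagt
Cd180: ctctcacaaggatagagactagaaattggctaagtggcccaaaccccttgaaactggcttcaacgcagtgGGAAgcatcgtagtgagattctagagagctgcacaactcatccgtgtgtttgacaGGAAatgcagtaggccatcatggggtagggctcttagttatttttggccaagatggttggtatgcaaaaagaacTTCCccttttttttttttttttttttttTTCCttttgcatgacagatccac

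The core occurred 3 times in the Ly86 window and 4 times in the Cd180 window. These letters are common: 93.4% of 32851 RefSeq promoters held at least 1 match in the same window, with a median of 3, and this core was searched after the sequences had been seen. The longer PU.1 letters GAGGAA, on either strand, were in neither promoter when the window ran on to 50 bases past the start, 300 bases in all. They were in 1 promoter of Tlr1 and in no promoter of the other 5 member genes in the table (Tlr2, Tlr6, Myd88, Ly86 and Cd180), against 28.3% of all promoters. The NF-kB letters GGGA, any base and TTTCC, on either strand, were in none of the 9 promoters of these 6 genes, against 0.411% of all promoters. A match or its absence describes these windows only. Promoters of Tlr4, Tlr7, Cd14 and Ly96 were not analysed here.

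In the TLR4-CD14-MD2 arm only Cd14 was measurable. Cd14, the co-receptor that carries lipopolysaccharide, was at 6.60 in Lysm-Cre and 6.55 with the Ssu72fl/fl label, 1.95 and 1.89 above the floor. Its difference was -0.053, smaller than the spread of 0.31 among 210 genes of like level, whose own median was -0.20. Its direction turned with the scaling: the level-adjusted difference was 0.26, and 66 of the 210 genes were at least as high on that scale, so Cd14 stayed inside the scatter of its neighbours on both scales. Tlr4, the signalling receptor, read 4.64 and 4.51, and Ly96, which encodes its lipopolysaccharide-binding partner, read 4.50 and 4.45. The Lysm-Cre reading of Tlr4 lay 0.010 below the floor. With the floor lowered to the 25th percentile of all values, Tlr4 was compared at -0.13 and Ly96 at -0.033 as a bound, since its second reading was still below that floor.

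The arms thus differed by -0.41 (RP105-MD1 minus TLR4-CD14-MD2) on the deposited scale and by -0.66 when level-adjusted. The first arm rests on Cd180 and Ly86 and the second on Cd14 alone, and no test of this difference was possible. The 2 co-receptors that read clearly above the floor, Cd14 and Ly86, carried the contrast: Ly86 was lower by several times its spread, and Cd14 differed by less than its spread.

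**Figure D2:**
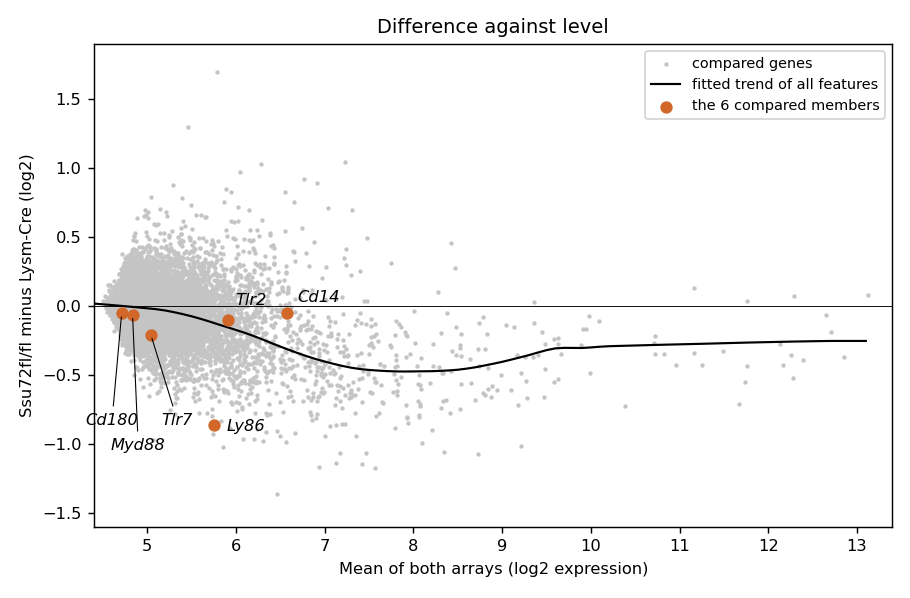
Difference between the arrays (vertical axis, log2, Ssu72fl/fl minus Lysm-Cre) against the mean of both arrays (horizontal axis, log2) for the 13015 compared genes (grey points), the fitted trend over all features (line) and the 6 compared members (orange). Ly86 lies at -0.86, far under the line, Cd14 (-0.053) lies above it, and Tlr2, Tlr7, Cd180 and Myd88 lie in the grey cloud.

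The lipopeptide receptors gave 1 measurable member. Tlr2, which pairs with Tlr1 or Tlr6 to sense bacterial lipopeptides, was at 5.96 and 5.86, a difference of -0.098 against a spread of 0.26 and a median of -0.12 in genes of like level. Its level-adjusted difference was 0.056, so its direction also turned with the scaling. Tlr1 read 4.62 and 4.61, and Tlr6 read 4.47 and 4.48, all below the floor. Tlr1 and Tlr6 lie side by side on the chromosome and encode closely related proteins, and whether their probes tell them apart was not tested.

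Tlr7, an endosomal receptor for single-stranded RNA, was the second lowest of the compared members. It was at 5.15 in Lysm-Cre and 4.94 with the Ssu72fl/fl label, a difference of -0.21 that exceeded its spread of 0.15. The level-adjusted difference was -0.19. Of 5894 genes of like level, 562 (9.54%) were at least as low. Tlr8, its neighbour on the X chromosome and its nearest relative, was lower too, at 5.39 and 5.08 (-0.31, level-adjusted -0.27, spread 0.18). Myd88, the adaptor shared by nearly all Toll-like receptors and by interleukin-1 receptors, was at 4.87 and 4.80, a difference of -0.064 inside a spread of 0.10.

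Of the other 7 Toll-like receptor genes, 5 were compared, and Tlr8 was the only one lower. The others were higher by small amounts: Tlr5, the flagellin receptor, by 0.10, Tlr12, which senses profilin, by 0.082, and the endosomal DNA receptor Tlr9 by 0.024, each less than the spread at its level, while Tlr13 was below the floor on the Lysm-Cre array and higher by at least 0.035. Tlr3 and Tlr11 were below the floor on both arrays. The median was 0.035 (level-adjusted 0.052).

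All 9 compared genes of receptor folding and transport were lower on both scales, with a median of -0.21 (level-adjusted -0.14), against 51.9% of all compared genes lower (46.5% level-adjusted). On the deposited scale lower readings were more frequent at higher signal. At levels 4 to 5 and 5 to 6, where all of the list but Hsp90b1 lay, 46.5% and 56.5% of compared genes were lower. At levels 7 to 8, where Hsp90b1 lay, the share was 88.2%. The lowest was Hsp90b1, at 7.47 and 6.80 (-0.67). It encodes gp96, the endoplasmic reticulum chaperone that folds most Toll-like receptors as well as integrins, and it was the only gene of the list at least 1.5-fold lower. Its level-adjusted difference of -0.25 was inside a spread of 0.27. Unc93b1, which escorts Tlr7, Tlr9 and other endosomal receptors out of the endoplasmic reticulum, was at 6.11 and 5.66 (-0.45, level-adjusted -0.30, spread 0.26). Relative to their spread, Rab10 (-0.30, level-adjusted -0.29, spread 0.14) and Ap3b1 (-0.21, level-adjusted -0.20, spread 0.11) lay further out when level-adjusted. Cnpy4 (-0.063) and Slc15a4 (-0.066), a lysosomal transporter used in Tlr7 and Tlr9 signalling, were the least low.

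Of 7 compared genes of ligand transfer and accessory surface proteins, 6 were lower and 1 higher (median -0.24). When level-adjusted, 4 were lower and 3 higher (median -0.10). Among all compared genes 51.9% were lower (46.5% level-adjusted). Hmgb1, a nuclear protein that binds these receptors when released, was lowest at 8.71 and 8.03 (-0.68, level-adjusted -0.21, spread 0.34). Several features of the array share Hmgb1 with a near copy, so its value is uncertain. The integrin gene Itgb2 followed at 8.27 and 7.90 (-0.38), but its level-adjusted difference was 0.097. Hmgb1 and Itgb2 both lay at levels 8 to 9, where 94.9% of compared genes were lower on the deposited scale. Trem1, a receptor that amplifies inflammatory signals, was at -0.024, and the scavenger receptor gene Scarb1 was higher by 0.12. Lbp, whose product delivers lipopolysaccharide to CD14, was below the floor on both arrays.

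Signalling genes downstream of the adaptors showed no common direction. In the MyD88 arm, 8 of 18 compared genes were lower and 10 higher (median 0.031, level-adjusted 0.060), and none reached 1.5-fold. The NF-kB subunit gene Rel (-0.51, level-adjusted -0.28, spread 0.31) and the kinase gene Irak2 (-0.39, level-adjusted -0.33, spread 0.21) were lowest. The ubiquitin enzyme variant gene Ube2v1 (0.30, spread 0.11) and the kinase gene Map2k3 (0.18, spread 0.23) were highest. In the TRIF arm, which serves TLR3 and TLR4, 3 of 7 compared genes were lower and 4 higher (median 0.0098, level-adjusted 0.013). Ticam1, which encodes TRIF itself, was highest at 4.80 and 5.06 (0.26, spread 0.12), followed by the kinase gene Ikbke (0.18, spread 0.13). Tbk1 (-0.024) and Tradd (-0.018) were the lowest above the floor on both arrays, and Tank was lower by at least 0.29, since it was below the floor on the array labelled Ssu72fl/fl.

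Negative regulators held 3 of 14 compared genes at least 1.5-fold lower, against 1.37% of all compared genes, and none as much higher; when level-adjusted, 0 of the 14 passed that size downward. In all, 9 were lower and 5 higher, against 51.9% of all compared genes lower, and the median was -0.25. The stress-induced repressor gene Atf3 was at 8.43 and 7.72 (-0.71), and the inhibitory receptor gene Lilrb4a at 7.77 and 7.07 (-0.70). Both lay inside their spread when level-adjusted (-0.23 against 0.34, and -0.24 against 0.30). Tnip3, whose product binds the NF-kB inhibitor A20, was at 5.72 and 5.12 (-0.59) with a level-adjusted difference of -0.53 (spread 0.21), under 1.5-fold. Socs1 (0.15) and Nfkbib (0.065) were highest. The level-adjusted median of the list was -0.047, with 8 lower and 6 higher.

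Of 21 compared genes induced by Toll-like receptor signalling, 15 were lower and 6 higher (median -0.10). When level-adjusted, 13 were lower and 8 higher (median -0.028). The share lower among all compared genes was 51.9% (46.5% level-adjusted). Those at least 1.5-fold lower, a size reached downward by 1.37% of all compared genes, were the chemokine genes Ccl3 (-1.17, level-adjusted -0.71) and Ccl4 (-0.89, level-adjusted -0.66). The antiviral gene Ifit3 was higher by 0.89 (level-adjusted 1.28), and Lcn2 followed at 0.11. Of the same family as Ifit3, Ifit1 was at -0.040 (spread 0.12) and Ifit2 was below the floor on both arrays. Of 4 further targets, picked after their values were seen, the cytokine genes Tnf and Il1b had level-adjusted differences of 0.0031 and -0.019, while the prostaglandin synthase gene Ptgs2 (-0.38, spread 0.18) and the chemokine gene Ccl2 (-0.23, spread 0.21) lay beyond their spread. Over all compared genes, 178 passed 1.5-fold downward and 41 upward on the deposited scale, but 41 downward (0.315%) and 94 upward (0.722%) when level-adjusted, so the split of calls turned with the scaling.

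**Figure D3:**
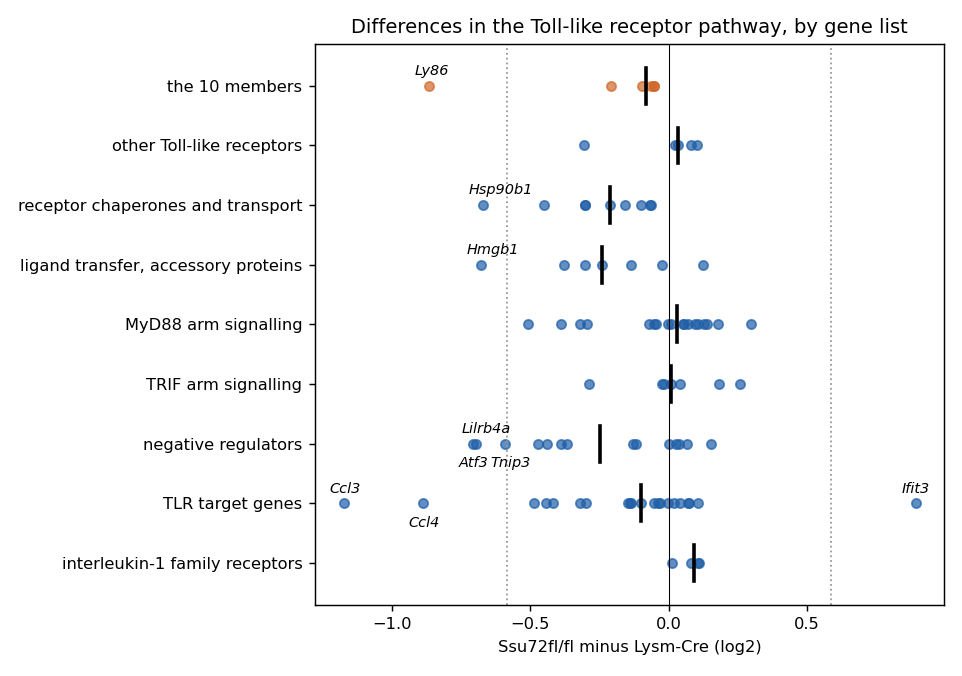
Difference between the arrays (horizontal axis, log2, Ssu72fl/fl minus Lysm-Cre) for each compared gene of the 10 members (orange) and of 8 pathway lists (blue), with the list median as a black bar and 1.5-fold as dotted lines. Genes past 1.5-fold are named: Ly86 among the members, Hsp90b1, Hmgb1, Atf3, Lilrb4a, Tnip3, Ccl3 and Ccl4 on the lower side, and Ifit3 on the higher side.

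Markers of the sorted cells and of other cells in the lung were read beside these values. Of all compared genes, 51.9% were lower (46.5% level-adjusted). On the deposited scale the share was 71.0% at levels 6 to 7 and 88.2% at levels 7 to 8. All 13 named alveolar macrophage markers were above the floor, with 12 lower and 1 higher (median -0.31), or 7 lower and 6 higher when level-adjusted (median -0.017). Among them, Itgax was at 7.31 and 6.82, Marco at 6.28 and 5.78 and Siglecf at 5.18 and 5.09. Ly86 is also made by B cells, monocytes and dendritic cells, and in bulk RNA fewer cells of a type and less RNA per cell cannot be told apart. Of 8 compared B cell markers 4 were lower (median -0.0085); Ms4a1 was below the floor on both arrays, and Cd79a was at 4.98 and 5.15. The log2 of the summed signal of the list was 8.68 (Lysm-Cre) and 8.47 (labelled Ssu72fl/fl), and Ighm, a member of the list, was at 7.46 and 6.88. Monocyte markers were lower in 8 of 9 on both scales (median -0.33, level-adjusted -0.27, summed signal 8.96 and 8.56). Interstitial macrophage markers were lower in 7 of 8 on both scales (median -0.39, level-adjusted -0.31, summed signal 10.11 and 9.32). They ran from H2-Ab1 (-1.07, level-adjusted -0.63) and H2-Aa (-0.86, level-adjusted -0.42) to Folr2 (0.12). H2-Ab1, at 9.26 and 8.19, had the strongest signal of that list. Cx3cr1 (-0.63, level-adjusted -0.42) was the monocyte marker at least 1.5-fold lower. Among the marker lists, those of monocytes and interstitial macrophages had the lowest medians on both scales. The median over all compared genes was -0.0068 (level-adjusted 0.010), beside -0.0085 (level-adjusted -0.0084) for B cell markers. The part of any cell type in the difference of Ly86 was not tested. Dendritic cell markers had a median of -0.037 (5 of 6 lower, level-adjusted -0.015, summed signal 9.51 and 9.29), with Zbtb46, Xcr1 and Itgae below the floor on both arrays. Neutrophil markers had a median of -0.056 (6 of 7 lower, summed signal 8.13 and 8.09), with S100a8 at 4.76 and 4.66 and Cxcr2, Ly6g and Camp below the floor. The median of T cell markers was 0.15 (3 of 4 higher, summed signal 7.31 and 7.50), with Lat higher by 0.68 (spread 0.18). Cd3d and Cd4 were below the floor on the Lysm-Cre array and give bounds only, and Cd3e and Cd3g were below it on both arrays. The median of alveolar type 2 cell markers was -0.20 (6 of 7 lower, level-adjusted -0.047, summed signal 9.44 and 9.14), with Sftpc at 8.71 and 8.35.

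The size of the Ly86 difference depended on the scale. Of 8 other ways of processing the values, 5 could change it, and these gave -1.25 to -0.74. The other 3 (both floors and the mean of a gene's features) left it as it was, because Ly86 has 1 feature and read above each floor. The lower end came from subtracting an offset of 16 from the linear values before taking logs, a step tried because an unknown offset in the deposited values would compress every difference. Tlr7 was -0.41 to -0.18 under the same 8 settings, while Cd14 ranged from -0.064 to 0.26 and Tlr2 from -0.13 to 0.056. Cd14 and Tlr2 were higher under quantile normalization and both level adjustments and lower with median centring and with the offset; both floors and the mean of features left them as they were.

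**Figure D4:**
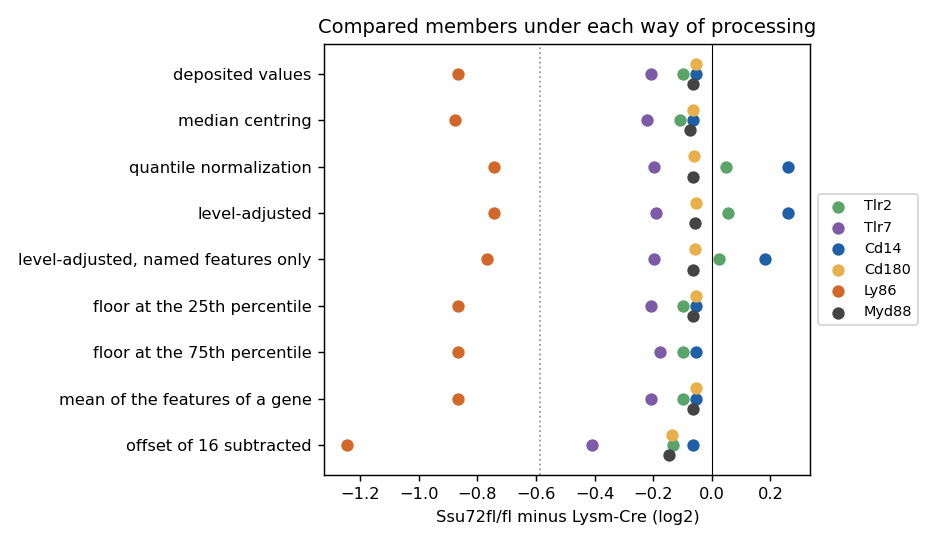
Difference between the arrays (horizontal axis, log2, Ssu72fl/fl minus Lysm-Cre) of the 6 compared members under the deposited scale and 8 alternatives (vertical axis), with 1.5-fold lower as a dotted line; Cd180 and Myd88 are drawn slightly above and below their row so that they can be told apart, and both are missing where the floor was set at the 75th percentile. Ly86 lies left of the dotted line in every row, and Cd14 and Tlr2 are on both sides of 0.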

How the data were processed

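The authors deposited 1 log2 expression value per Affymetrix feature, a scale inferred here from their range of 4.23 to 13.5. MAS5 is named, with no role, per the submitters' processing notes; background correction, normalization and offset are unknown, and scanner files were not analysed here. Protein sequences were not used here. Array medians were 4.65 and 4.66.

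Of 33793 features, 23521 had 1 symbol in the platform annotation; 23328 of these took the symbol of RefSeq (GRCm38.p6) through their Entrez identifier. A gene took its feature with the highest mean. Values under the floor (50th percentile of all values) were set to it; 2081 compared genes were below it on 1 array and have bounds only. The trend was a lowess curve (fraction 0.3) through medians of level bins at least 0.1 wide with at least 10 features, tested on simulated data (Python 3.11.15, numpy 2.4.6, pandas 2.3.3, statsmodels 0.14.6). No test between groups was possible. Genes were named if they were members, Ssu72 or, in a pathway list, at least 1.5-fold different or the 2 lowest and 2 highest above the floor on both arrays; Cd79a, Ms4a1, Siglecf, Itgax, Marco, S100a8 and Sftpc stood for their marker lists. Other list members named as neighbours, bounds, below the floor, and Tnf, Il1b, Ptgs2, Ccl2, Ifit1, Rab10, Ap3b1 and the further markers lie outside that rule. Members, lists and alternatives were chosen with earlier results of these data known.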

Additional observations from a re-analysis of the deposited data

How the results depend on the processing

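With 1 array per genotype, no replicate could be left out. The count of lower members was 6 of 6 on the deposited scale, with median centring, with the offset and with the mean of features. It was 4 of 6 with quantile normalization and both level adjustments. With the floor at the 25th percentile it was 9 of 10, and at the 75th 4 of 4. The count at least 1.5-fold lower was 1 under each of these settings. The median of the members, -0.081 before, was -0.14 to -0.056 under the 8 alternatives. These medians were small beside the spread of all compared genes (0.13) or similar to it. With a 2-fold threshold, 0 members were counted as lower. The median of the TLR4-CD14-MD2 arm, Cd14 alone at the main floor, moved from -0.053 to 0.26 with quantile normalization, 0.26 when level-adjusted and 0.18 with the trend of named features only. The contrast of the arms then moved from -0.41 to -0.66, -0.66 and -0.59. With the floor at the 75th percentile, Cd180 was no longer compared, so the RP105-MD1 arm (-0.46 before) was Ly86 alone at -0.86 and the contrast -0.81. With an offset of 16 subtracted, the RP105-MD1 arm was at -0.69 and the contrast at -0.63. The contrast was below 0 in the 5 of 8 alternatives that changed it; centring, the 25th percentile floor and the mean of features left it as it was, and each member has 1 feature. Signal near the floor limits the readings of Tlr1, Tlr4, Tlr6, Ly96 and Cd180.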

Other observations

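Interleukin-1 family receptors share the signalling domain of Toll-like receptors and, with them, Myd88. All 4 compared genes of this list were higher by small amounts, with a median of 0.092 (level-adjusted 0.097), and none reached 1.5-fold. Of all compared genes, 51.9% were lower (46.5% level-adjusted). At levels 4 to 5, where all 4 lay, 46.5% were lower on the deposited scale. Il1rap, the shared accessory chain, was at 4.65 and 4.76 (0.11, spread 0.093), with its Lysm-Cre reading barely above the floor. Il18r1, which binds interleukin-18, was at 4.91 and 5.02 (0.11, spread 0.13). Il1rl2 was higher by 0.079 (spread 0.10), and Il1r1, the interleukin-1 receptor, by 0.013 (spread 0.098). Il18rap was below the floor on both arrays.

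Genes next to the members on their chromosomes were also read, in the gene order of GRCm38.p6. F13a1, a coagulation factor gene of monocytes that lies before Ly86, was at 5.46 and 5.06 (-0.40, level-adjusted -0.36, spread 0.18). It is also in the monocyte marker list above, so this reading was already counted there. Rreb1, on the other side of Ly86, was at 5.17 and 5.22 (0.052, spread 0.17). Prps2, which follows Tlr7, was at 4.83 and 4.65 (-0.17, spread 0.095), with its second reading barely above the floor. Tlr8, Tlr7 and Prps2 were thus lower in a row. Next to Cd180, Pik3r1 was at -0.13 (spread 0.19) and Mast4 at -0.00046 as a bound. Beside the remaining members, Klf3 (next to Tlr1, -0.26, spread 0.15) and E230025N22Rik (next to Cd14, -0.11, spread 0.096) were lower beyond their spread. Jph1 (next to Ly96, 0.23, spread 0.11) and Oxsr1 (next to Myd88, at least 0.15, spread 0.094) were higher beyond theirs. The other compared neighbours of those members lay inside their spread. These neighbours were read after the members' values had been seen.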
